A study of Mus musculus with 12 samples.

Results

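The integrated stress response and the cytosolic tRNA synthetases were described by 40 genes, taken by name from the 26967 genes that the deposited tables list. The genes comprised 4 kinases that sense stress, 7 transcription factors, 9 effectors and feedback genes, 2 secreted factors and 18 genes of tRNA charging and export. All 40 had enough reads to be tested in every comparison. RNA of C2C12 cells, a mouse myoblast line that fuses into myotubes when serum is withdrawn, was sequenced in 4 groups of 3 libraries. The groups were PGAM2-K176R mutant cells at differentiation d4, WT cells at d4, mutant cells at d0 and WT cells at d0. The mutant cells carry a homozygous knock-in that replaces lysine by arginine at position 176 of phosphoglycerate mutase 2, the muscle isoform of a glycolytic enzyme. At d0 both genotypes were kept in growth medium with fetal bovine serum, and at d4 both had been in differentiation medium with horse serum. The mutant line is 1 clone, so effects of the mutation and of the clone cannot be told apart.

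The integrated stress response begins when 1 of 4 kinases phosphorylates the translation initiation factor eIF2. Translation then falls for most mRNAs but rises for Atf4, whose protein binds DNA with C/EBP partners and switches on genes of amino acid supply, redox balance and tRNA charging. In muscle the response is best known from mitochondrial disease models, in which it makes the fibers secrete FGF21 and GDF15. Only RNA was measured here, so neither eIF2 phosphorylation nor ATF4 protein was observed.

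At d4 most of the genes had lower RNA levels in mutant cells, and at d0 they did not. In the d4 comparison, 23 of the 40 genes fell and 0 rose (limma on log2(FPKM + 1), adjusted p under 0.05 and absolute log2 fold change above 1), where 5.98% of all 13252 genes tested fell and 1.73% rose. No gene rose with edgeR or DESeq2 on reads either, and 4 were higher at an unadjusted p under 0.05. The share of all genes under that unadjusted p was not computed. It cannot be smaller than the share by adjusted p alone, so counts at an unadjusted p are no result about the genes by themselves. The median log2 fold change of the 40 genes, mutant over WT, was -1.06, against 0.004 over all genes tested. By limma's adjusted p alone 33 fell and 4 rose, beside 28.7% and 26.3% of all genes. All 3 mutant libraries lay below all 3 WT libraries for 35 of the 40 genes and above them for 4, where this held for 32.7% and 30.7% of all genes. In the d0 comparison 1 gene rose and 2 fell (edgeR), where 3.03% of 13920 genes rose and 9.21% fell, and the median was 0.34 against -0.02 over all genes. By edgeR's adjusted p alone 16 rose and 4 fell at d0, beside 20.4% and 23.9% of all genes, and 12 to 21 rose when 1 library was left out in turn, the fewest without WT replicate 2 and the most without WT replicate 3. All mutant libraries lay above all WT libraries at d0 for 15 of the 40 genes and below them for 4, where this held for 26.1% and 26.2% of all genes. The difference between the d4 and d0 effects was tested as the interaction of genotype and day (edgeR), the d4 over d0 change of mutant cells minus that of WT cells. It was called below 0 for 24 of the 40 genes and above 0 for 0 (0 also by DESeq2, and 5 at an unadjusted p under 0.05), where 7.95% and 8.68% of 15114 genes were called, and 21 of the 24 were also called lower at d4. By edgeR's adjusted p alone 33 interactions were below 0 and 4 above, beside 23.3% and 21.9% of all genes.

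**Figure D1:**
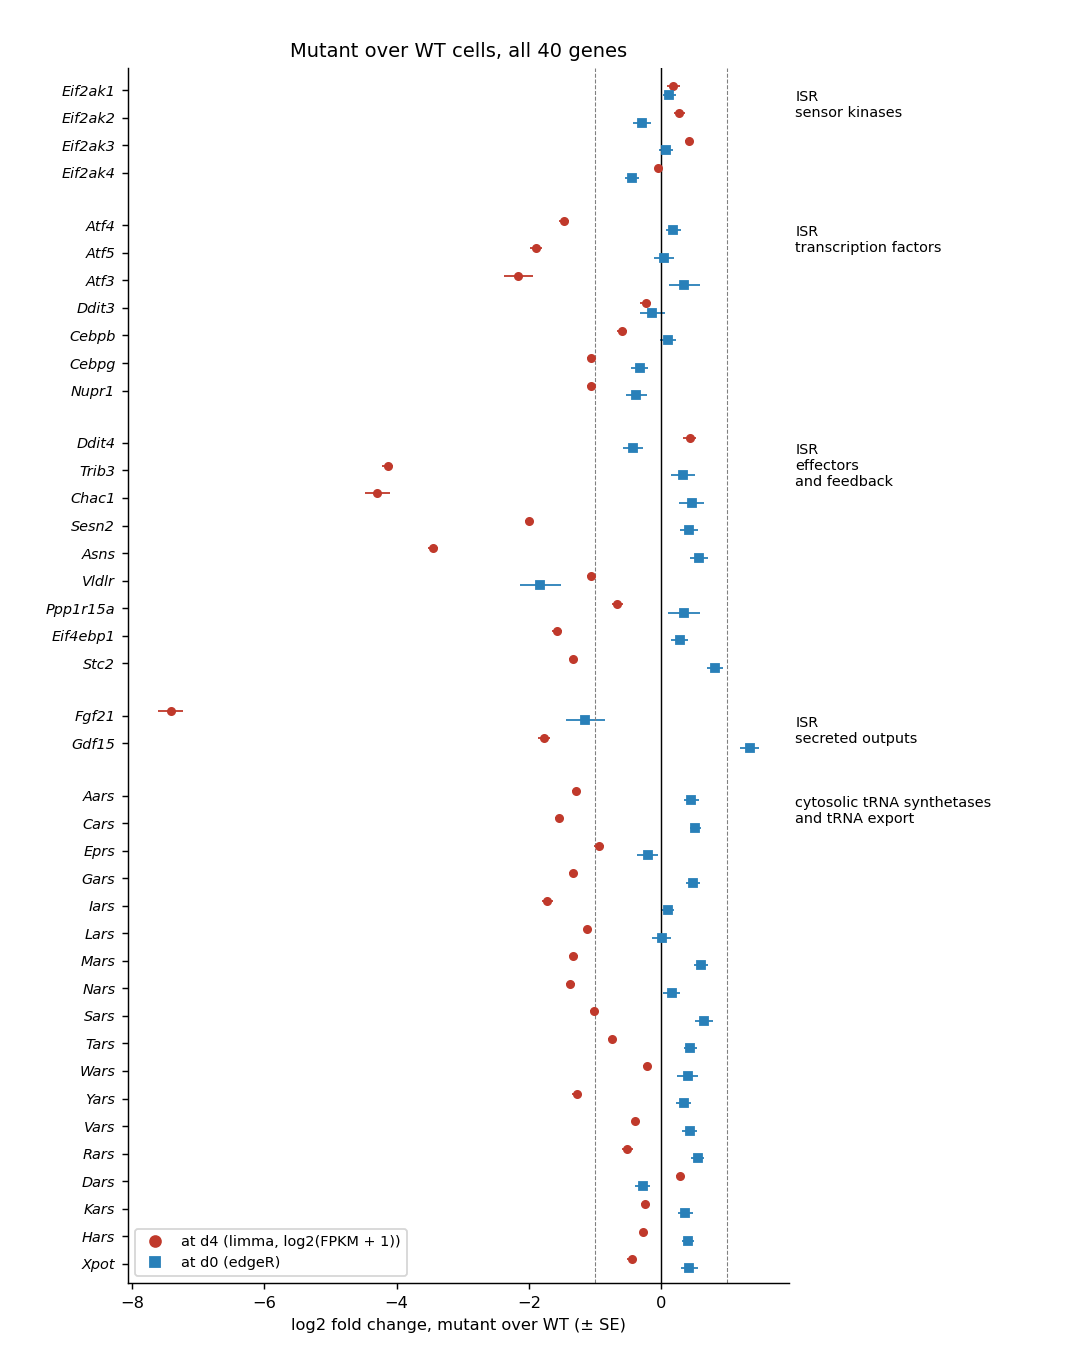
Log2 fold changes of all 40 genes, mutant over WT, with standard errors, grouped by role. Squares give d0 (edgeR) and circles d4 (limma on log2(FPKM + 1)), and dashed lines mark -1 and 1. At d4 the points of 35 genes lie below 0, down to -7.42 for Fgf21, whereas at d0 30 of the 40 lie above 0.

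Libraries held 16098407 to 21412560 reads assigned to genes. Among the 3 WT d0 libraries, replicate 3 had the highest level of 30 of the 40 genes, and among the WT d4 libraries replicate 3 had the lowest level of 32. Calls that were lost and signs that changed without the WT d0 library are given with and without it. Overlap of groups was judged on all 3 libraries. At d0 only WT replicate 3 was not below all mutant libraries for Atf4, Atf3, Trib3, Sesn2, Eif4ebp1 and Ppp1r15a. The same held for Iars, Lars, Nars and Wars, so these overlaps rest on that library. Over all genes tested, 5.98% were called lower and 1.73% higher at d4, and 9.21% lower and 3.03% higher at d0. In the interaction 7.95% were called below 0. The calls in the marker lists stand beside these shares. A list of 12 myoblast and myotube markers moved with the d4 results. It summed to 2309 to 2456 FPKM (reads per kilobase of gene length, scaled per library) in mutant cells and 7636 to 7915 FPKM in WT cells at d4, with 0 of the 12 listed at 0, 8 called lower and 1 called higher in mutant cells. At d0 the same markers summed to 488 to 633 FPKM in mutant cells and 513 to 639.7 FPKM in WT cells, with 7 called lower and 1, Myh4, at 0 in mutant cells. A list of 10 fibroblast and smooth muscle markers summed to 606.4 to 618.2 FPKM in mutant cells and 610.9 to 633.1 FPKM in WT cells at d4, with 3 called lower, and to 90.11 to 100.4 FPKM in mutant cells and 358.5 to 391 FPKM in WT cells at d0, with 6 called lower. Of the 10, Lum was at 0 in mutant cells at d0, and Thy1 was at 0 in mutant cells at d4 and not listed at d0. Of 10 pancreatic beta-cell markers, the 4 listed at d4 summed to 17.4 to 17.91 FPKM in mutant cells and 25.26 to 28.96 FPKM in WT cells, and the 9 listed at d0 to 9.64 to 19.1 FPKM in mutant cells and 1.227 to 2.171 FPKM in WT cells, with 4 of 5 tested called higher at d0 and 2 of 2 called below 0 in the interaction (edgeR). The 6 listed of 8 macrophage and blood markers summed to 2.557 to 3.136 FPKM in mutant cells and 2.344 to 2.659 FPKM in WT cells at d4, and to 43.12 to 47.79 FPKM in mutant cells and 6.98 to 9.857 FPKM in WT cells at d0, of which Hba-a1 made up most. The part of these marker lists in the results was not tested, and in bulk RNA fewer myotubes cannot be told apart from less RNA per cell.

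ATF4 and its C/EBP partners bind a composite element with the core TGATGNAA, and this core was searched on both strands of RefSeq promoter windows (GRCm38.p6), which run from 250 bases before to 50 bases after each transcription start. Windows were found for 32 of the 40 genes. The core was present for 12 of these 32 genes, or 37.5%, against 4.51% of 27025 genes with a window and 3.97% of all 32851 windows. Among the genes whose interaction was called below 0 it was found in 11 of the 19 with a window, and among the others in 1 of 13. The stricter core TGATGCAA was found for 9 of the 32 genes, against 1.03% of all genes. The 40 genes were chosen as genes of this response, with earlier results of these data known. The higher share among them is therefore no test of ATF4 action. The split by interaction was drawn from these same data and was not tested. A match of letters is a description and shows no binding. The stretches around the matches of 11 of the 12 genes are printed in the direction of each gene with the core in capitals, to show each match with its flanks, first for the transcription factors and effectors.
Atf3 (chr1:191183425-191183454, minus strand): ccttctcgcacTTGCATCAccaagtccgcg
Nupr1 (chr7:126625562-126625591, minus strand): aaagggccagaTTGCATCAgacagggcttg
Trib3 (chr2:152344028-152344057, minus strand): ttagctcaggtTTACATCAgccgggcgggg
Chac1 (chr2:119351038-119351067, plus strand): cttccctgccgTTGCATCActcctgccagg
Asns (chr6:7693214-7693243, minus strand): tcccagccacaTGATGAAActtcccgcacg
Vldlr (chr19:27216809-27216838, plus strand): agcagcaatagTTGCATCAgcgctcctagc

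The matching stretches of the secreted factor and of the synthetases are printed in the same way.
Fgf21 (chr7:45615611-45615640, minus strand): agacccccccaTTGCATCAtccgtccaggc
Gars (chr6:55037960-55037989, plus strand): tggctgcgctaTTTCATCAtgcaccgggcg
Iars (chr13:49682126-49682155, plus strand): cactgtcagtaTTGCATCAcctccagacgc
Tars (chr15:11399655-11399684, minus strand): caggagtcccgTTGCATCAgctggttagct
Yars (chr4:129189895-129189924, plus strand): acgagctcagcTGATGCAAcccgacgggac

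In 9 of these 11 sites the core lay on the strand opposite to the gene, so the capitals show its reverse complement, and in Asns and Yars it lay on the strand of the gene. The core of Fgf21 began 139 bases before the transcription start. The full 250 bases before that start are shown because Fgf21 had the largest change of the 40 genes at d4 (chr7:45615491-45615740, minus strand).
Fgf21 promoter: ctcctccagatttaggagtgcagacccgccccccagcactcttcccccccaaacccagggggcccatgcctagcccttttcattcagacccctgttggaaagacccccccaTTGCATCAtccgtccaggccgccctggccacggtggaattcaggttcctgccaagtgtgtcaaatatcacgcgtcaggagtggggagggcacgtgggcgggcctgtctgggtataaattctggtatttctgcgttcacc

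The sensor kinases did not share the fall. These are Eif2ak1 (HRI, which senses heme lack and mitochondrial stress), Eif2ak2 (PKR, activated by double-stranded RNA), Eif2ak3 (PERK, of the endoplasmic reticulum) and Eif2ak4 (GCN2, activated by uncharged tRNA). At d4 0 of the 4 were called by limma, edgeR or DESeq2. At an unadjusted p under 0.05 2 were higher, and 2 by limma's adjusted p alone, beside 26.3% of all genes. The log2 fold changes of the 4 ran from -0.05 for Eif2ak4 to 0.42 for Eif2ak3. Eif2ak3 had 6.41, 5.81 and 5.66 FPKM in mutant cells, against 3.99, 4.34 and 4.29 FPKM in WT cells, and passed limma's adjusted p alone (0.00157). Eif2ak4 had 4.07, 3.39 and 3.91 FPKM in mutant cells at d0, against 4.94, 5.08 and 5.07 FPKM in WT cells, so the groups did not overlap, but the difference of -0.43 ± 0.10 was below the fold threshold (edgeR adjusted p = 0.00559).

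Atf4 (ENSMUSG00000042406, GRCm38 chr15:80255184-80257541), the transcription factor at the center of the response, had 84.4, 93.9 and 78.6 FPKM in mutant cells at d4, against 239, 248 and 225 FPKM in WT cells. The log2 fold change was -1.46 ± 0.08 (limma adjusted p = 2.26e-05), and the highest mutant library lay far below the lowest WT library. At d0 Atf4 had 269, 308 and 330.1 FPKM in mutant cells and 258, 234 and 293 FPKM in WT cells, groups that overlapped (edgeR, 0.18 ± 0.11, edgeR adjusted p = 0.204). Atf4 mRNA was thus abundant in 3 of the 4 groups and lower in mutant cells at d4.

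The other transcription factors of the response followed Atf4 to different extents. Atf5, which is also controlled at translation, had 42.1, 40.9 and 41.6 FPKM in mutant cells at d4, against 171, 165 and 137 FPKM in WT cells (-1.89 ± 0.09, limma adjusted p = 1.34e-05). Atf3, a stress-induced repressor and activator, had 4.82, 4.86 and 2.58 FPKM in mutant cells at d4, against 24.5, 22.0 and 17.6 FPKM in WT cells (-2.16 ± 0.22, limma adjusted p = 3.69e-04). At d0 the mutant and WT ranges of both genes overlapped, Atf5 at 132, 149.8 and 163 FPKM in mutant cells and 134, 113 and 178 FPKM in WT cells. Cebpg, a dimer partner of ATF4, had 5.44, 5.48 and 5.68 FPKM in mutant cells at d4, against 13.3, 13.1 and 11.5 FPKM in WT cells (-1.06 ± 0.07, limma adjusted p = 4.08e-05). Nupr1, a small stress-induced chromatin protein, had 20.5, 19.8 and 20.4 FPKM in mutant cells at d4, against 45.3, 45.0 and 39.97 FPKM in WT cells (-1.06 ± 0.06, limma adjusted p = 3.17e-05). Unlike those of Atf4, Atf5 and Atf3, the Nupr1 level of mutant cells at d4 was close to its d0 level of 20.4, 19.2 and 22.7 FPKM, and the WT cells were the higher group. The calls of Cebpg and Nupr1 lay close to the fold threshold and were lost with a pseudocount of 5 or with quantile normalization. Cebpb, a C/EBP factor of many tissues, differed by -0.59 ± 0.08 at d4, short of that threshold (limma adjusted p = 0.00100).

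Ddit3 (ENSMUSG00000025408, chr10:127290774-127296288), which encodes CHOP, the factor that links prolonged stress to cell death, did not follow the others. At d4 it had 23.0, 23.7 and 20.8 FPKM in mutant cells, against 28.0, 28.1 and 24.1 FPKM in WT cells. The groups did not overlap, but the log2 fold change was only -0.23 ± 0.08 (limma adjusted p = 0.0503). With edgeR on reads it was -0.241, which passed the adjusted p (edgeR adjusted p = 0.00832) but not the fold threshold. At d0 it had 49.7, 51.0 and 65.3 FPKM in mutant cells, against 49.8, 46.5 and 82.3 FPKM in WT cells, where the WT group spanned the mutant group because of replicate 3. The d0 difference was -0.13 ± 0.19 (edgeR adjusted p = 0.609) and turned to 0.179 without that library (edgeR adjusted p = 0.312). The interaction of Ddit3 was -0.16 ± 0.22 (edgeR adjusted p = 0.601), which missed the threshold, against -1.69 ± 0.13 for Atf4 (edgeR adjusted p = 3.10e-09). Ddit3 shares 105 exonic bases with another gene entry of the same name on the same strand, and 68 with Mars on the opposite strand. Whether reads were counted by strand is not stated in the labels or methods read here.

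**Figure D2:**
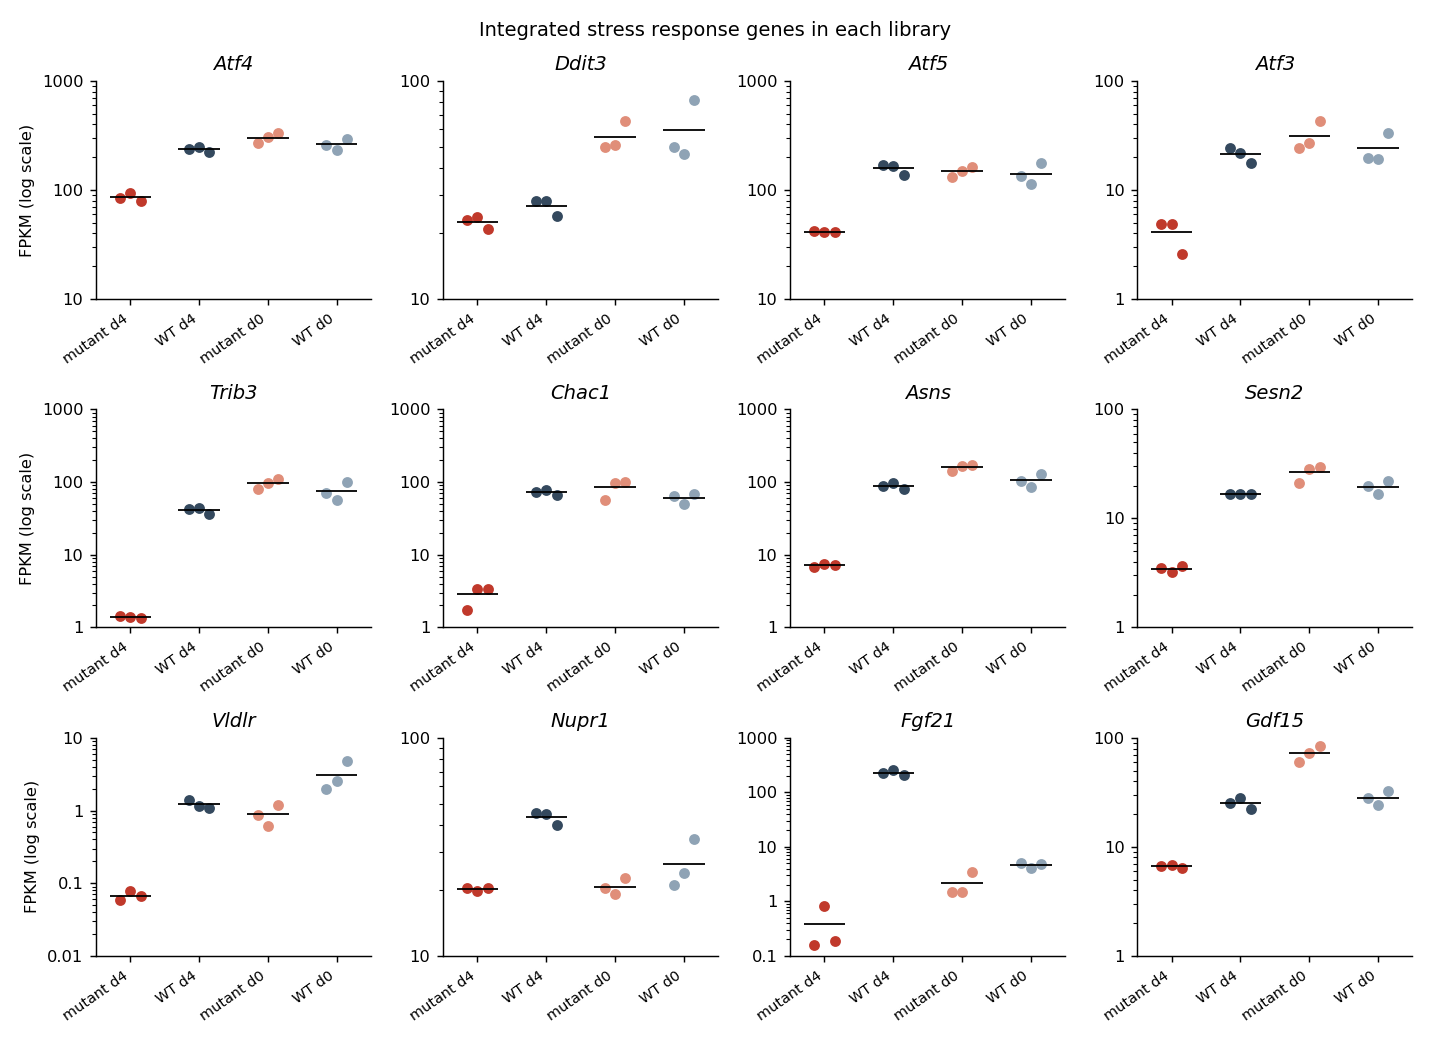
FPKM of 12 genes in each library on log axes, for mutant d4, WT d4, mutant d0 and WT d0 cells. Each point is 1 library and each line the mean of 3. The mutant d4 points lie below those of every other group for 11 of the 12 genes, by little for Ddit3, and the Nupr1 points of mutant cells at d4 lie among those of mutant cells at d0.

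On limma's log2(FPKM + 1) scale, Chac1, Trib3 and Asns had the largest changes of the effectors at d4. Trib3 (ENSMUSG00000032715, chr2:152337422-152344032), a pseudokinase that restrains ATF4 and AKT, had 1.44, 1.37 and 1.34 FPKM in mutant cells at d4, against 42.6, 44.2 and 36.2 FPKM in WT cells, a 29.7-fold lower mean (-4.14 ± 0.08, limma adjusted p = 5.16e-07). Chac1, which degrades glutathione, had 1.75, 3.41 and 3.36 FPKM in mutant cells at d4, against 73.2, 78.4 and 66.6 FPKM in WT cells, a 25.6-fold lower mean (-4.29 ± 0.19, limma adjusted p = 1.15e-05). Asns (ENSMUSG00000029752, chr6:7675169-7693254), the enzyme that makes asparagine, had 6.81, 7.51 and 7.26 FPKM in mutant cells at d4, against 88.8, 96.8 and 80.9 FPKM in WT cells, a 12.4-fold lower mean (-3.45 ± 0.08, limma adjusted p = 7.49e-07). All 3 carry the TGATGNAA core in the stretches printed for them. Because 1 is added to each FPKM, fold changes of genes with low mutant levels are understated: with edgeR on reads the Trib3 value was -4.88, and the Asns value of -3.62 was smaller in size than that of Vldlr at -4.16.

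Before differentiation these genes were not lower in mutant cells. At d0 Trib3 had 81.3, 97.1 and 112 FPKM in mutant cells and 70.2, 56.2 and 101 FPKM in WT cells, and the groups overlapped (0.33 ± 0.18, edgeR adjusted p = 0.167). Chac1 had 56.5, 98.7 and 101 FPKM in mutant cells at d0 and 64.8, 49.5 and 68.7 FPKM in WT cells, and the groups overlapped as well. Asns had 144, 166 and 174 FPKM in mutant cells at d0, against 105, 86.3 and 129 FPKM in WT cells, and here every mutant library was above every WT library (0.57 ± 0.14, edgeR adjusted p = 0.00552). The interactions were -5.25 ± 0.26 for Trib3, -5.18 ± 0.29 for Chac1 and -4.24 ± 0.17 for Asns (edgeR adjusted p = 5.11e-12, 2.72e-11 and 3.10e-13).

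Sesn2, Eif4ebp1 and Stc2 were also called lower at d4. Sesn2, which senses leucine and restrains mTORC1, had 3.499, 3.20 and 3.66 FPKM in mutant cells at d4, against 16.9, 16.6 and 16.8 FPKM in WT cells (-1.998 ± 0.05, limma adjusted p = 1.47e-06). Eif4ebp1, which holds back cap-dependent translation, had 20.6, 23.8 and 24.9 FPKM in mutant cells at d4, against 68.6, 71.8 and 71.2 FPKM in WT cells (-1.57 ± 0.08, limma adjusted p = 1.50e-05). Stc2, a secreted glycoprotein hormone, had 0.545, 0.437 and 0.444 FPKM in mutant cells at d4, against 2.82, 2.85 and 2.51 FPKM in WT cells (-1.34 ± 0.06, limma adjusted p = 1.07e-05). At d0 Stc2 stood in the opposite order, at 7.34, 7.85 and 8.33 FPKM in mutant cells and 3.98, 4.05 and 5.05 FPKM in WT cells, without overlap (0.82 ± 0.12, edgeR adjusted p = 2.18e-04). Sesn2 had 21.2, 28.6 and 29.8 FPKM in mutant cells at d0 and 19.8, 16.6 and 21.9 FPKM in WT cells, and Eif4ebp1 had 116, 136 and 137 FPKM in mutant cells and 104, 86.4 and 123 FPKM in WT cells, with overlap in both cases.

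Vldlr, a lipoprotein receptor that PERK and ATF4 induce in mouse liver, was lower in mutant cells at both days. At d4 it had 0.0589, 0.0779 and 0.0661 FPKM in mutant cells, from 12, 17 and 11 reads, against 1.41, 1.17 and 1.10 FPKM in WT cells, from 272, 229 and 175 reads. The mean was 18.1-fold lower in mutant cells, although limma on log2(FPKM + 1) gave -1.06 ± 0.06 (limma adjusted p = 3.53e-05) and edgeR on reads -4.16. At d0 it had 0.866, 0.622 and 1.195 FPKM in mutant cells, against 1.99, 2.53 and 4.78 FPKM in WT cells (-1.82 ± 0.31, edgeR adjusted p = 6.48e-04). Its interaction was -2.38 ± 0.48 in edgeR (edgeR adjusted p = 4.92e-04) and 0.007 in limma on log2(FPKM + 1) (limma adjusted p = 0.986), so that call rests on the scale.

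Ddit4 and Ppp1r15a were not called at d4. Ddit4, an mTORC1 inhibitor that also answers to glucocorticoids and low oxygen, had 22.0, 21.3 and 23.7 FPKM in mutant cells at d4, against 14.5, 15.9 and 18.6 FPKM in WT cells, and passed the adjusted p but not the fold threshold (0.43 ± 0.10, limma adjusted p = 0.00960). Ppp1r15a encodes GADD34, which leads the phosphatase back to eIF2. It had 12.6, 14.0 and 11.8 FPKM in mutant cells at d4, against 21.9, 21.4 and 18.9 FPKM in WT cells, again short of the fold threshold (-0.66 ± 0.08, limma adjusted p = 9.10e-04). At d0 Ppp1r15a had 23.0, 25.2 and 39.2 FPKM in mutant cells and 18.01, 16.9 and 32.4 FPKM in WT cells, with replicate 3 highest in both. Its interaction was -1.09 ± 0.28 (edgeR adjusted p = 0.00331), and without mutant d0 replicate 3 it was -0.835, without WT d0 replicate 1 -0.959 and without WT d0 replicate 2 -0.921, each inside the fold threshold.

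Of the secreted outputs, Fgf21 gave the widest separation of all the genes at d4, and the separation of Gdf15 was smaller. Fgf21 (ENSMUSG00000030827, chr7:45613886-45615490), a hormone that acts on fat, liver and brain, had 0.156, 0.825 and 0.191 FPKM in mutant cells at d4, from 3, 17 and 3 reads. WT cells at d4 had 231, 261 and 205 FPKM, from 4205, 4824 and 3079 reads. The mean was 595-fold lower in mutant cells, and the limma value of -7.42 ± 0.19 (limma adjusted p = 1.39e-06) was the lowest of all 13252 genes tested. With 3 reads in a pair of mutant libraries the size of the fold is imprecise, and edgeR on reads gave -9.11. At d0 Fgf21 was low in both genotypes, with 1.46, 1.49 and 3.51 FPKM in mutant cells, against 5.11, 4.14 and 4.76 FPKM in WT cells (-1.15 ± 0.30, edgeR adjusted p = 0.00899). That d0 difference was -0.929 without mutant replicate 1 and -0.93 without mutant replicate 2, inside the fold threshold.

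Fgf21 rose with differentiation in WT cells and fell in mutant cells. The d4 over d0 log2 fold change was -2.31 ± 0.53 in mutant cells (edgeR adjusted p = 9.10e-04) and 5.70 ± 0.12 in WT cells (edgeR adjusted p = 1.08e-15). The interaction was -8.00 ± 0.48 (edgeR adjusted p = 7.98e-11), the lowest of the 40 genes. Fgf21 is also a product of hepatocytes. Transcripts of 8 hepatocyte markers summed to 9.58 to 22.99 FPKM in mutant cells and 3.29 to 10.99 FPKM in WT cells at d4, with 0 of the 8 at 0. By limma 1 of the 4 tested was called higher in mutant cells, where 1.73% of all genes were. On reads, edgeR called 5 of these markers higher, with 721 of 14175 genes, and DESeq2 called 4, with 690 of 24787 genes. The part of these markers in the Fgf21 result was not tested.

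Gdf15 (ENSMUSG00000038508, chr8:70629393-70632456), a stress hormone that reduces appetite through the brainstem, changed sides between the days. At d4 it had 6.73, 6.85 and 6.34 FPKM in mutant cells, against 25.3, 28.1 and 22.1 FPKM in WT cells (-1.77 ± 0.09, limma adjusted p = 1.92e-05). At d0 it had 60.2, 72.7 and 85.04 FPKM in mutant cells, against 27.9, 24.0 and 32.8 FPKM in WT cells (1.34 ± 0.14, edgeR adjusted p = 1.71e-05). It was the only gene of the 40 called higher at d0, and its interaction was -3.30 ± 0.18 (edgeR adjusted p = 2.19e-11). Gdf15 had no TGATGNAA core in its window.

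The synthetases, which attach each amino acid to its tRNA, had lower summed levels in mutant cells at d4, and 1 of them, Dars, stood apart. Their 17 genes summed to 429, 432 and 432 FPKM in the mutant libraries, against 861, 869 and 796 FPKM in the WT libraries. At d0 they summed to 1419, 1471 and 1534 FPKM in mutant cells, against 1097, 1001 and 1273 FPKM in WT cells. The sums separated at both days and in opposite directions. Including Xpot, the exporter that carries mature tRNA out of the nucleus, 9 of 18 genes were called lower at d4, where 5.98% of all genes were, and 17 passed limma's adjusted p alone in that direction, beside 28.7% of all genes. At d0 0 of 18 were called by edgeR or DESeq2, although 13 were higher at an unadjusted p under 0.05 and 12 by edgeR's adjusted p alone, beside 20.4% of all genes. For 12 of the 18 every mutant library was above every WT library at d0, where this held for 26.1% of all genes.

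Nars (asparagine) and Gars (glycine) had the highest FPKM of the synthetases in WT cells at d4. Nars had 52.1, 53.0 and 52.5 FPKM in mutant cells at d4, against 142, 145 and 126 FPKM in WT cells (-1.37 ± 0.06, limma adjusted p = 1.24e-05). Gars had 51.0, 50.9 and 51.0 FPKM in mutant cells, against 135, 136 and 119.7 FPKM in WT cells (-1.33 ± 0.06, limma adjusted p = 1.28e-05). At d0 the order of Gars was reversed without overlap, at 197, 219 and 229 FPKM in mutant cells and 152, 135 and 167 FPKM in WT cells, whereas Nars overlapped at 230.4, 193 and 213 FPKM in mutant cells and 167, 167 and 226 FPKM in WT cells. These levels are per kilobase of the deposited gene length, so the order between genes depends on that length. Sars, for example, had 20938 reads in WT cells at d4 over 5142 bases, and Nars 19794 reads over 2632 bases.

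The steepest falls among the synthetases were those of Iars and Cars. Iars (isoleucine) had 14.2, 13.4 and 13.5 FPKM in mutant cells at d4, against 47.7, 52.3 and 42.9 FPKM in WT cells, a 3.47-fold lower mean (-1.72 ± 0.08, limma adjusted p = 1.25e-05). Cars (cysteine) had 6.90, 6.79 and 6.51 FPKM in mutant cells at d4, against 22.7, 21.6 and 20.6 FPKM in WT cells, a 3.21-fold lower mean (-1.55 ± 0.05, limma adjusted p = 4.03e-06). Mars (methionine) had 29.0, 29.1 and 25.6 FPKM in mutant cells at d4, against 74.4, 71.8 and 68.6 FPKM in WT cells (-1.33 ± 0.07, limma adjusted p = 1.86e-05). None of the 3 had overlapping groups at d4. Cars and Mars were also separated at d0 in the other direction, with 33.4, 37.3 and 36.2 FPKM of Cars in mutant cells and 24.5, 23.2 and 25.7 FPKM in WT cells, and 96.6, 117 and 111 FPKM of Mars in mutant cells and 74.6, 61.7 and 73.7 FPKM in WT cells. The d0 values were 0.52 ± 0.09 for Cars and 0.61 ± 0.11 for Mars (edgeR adjusted p = 6.50e-04 and 7.78e-04).

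The other called synthetases changed by similar amounts. Aars (alanine) had 15.02, 15.3 and 13.9 FPKM in mutant cells at d4, against 37.1, 39.2 and 35.9 FPKM in WT cells (-1.29 ± 0.06, limma adjusted p = 1.14e-05). Yars (tyrosine) had 11.3, 11.5 and 9.84 FPKM in mutant cells at d4, against 28.1, 28.6 and 26.5 FPKM in WT cells (-1.28 ± 0.07, limma adjusted p = 2.42e-05). Lars (leucine), whose protein also senses leucine for mTORC1, had 23.7, 25.6 and 23.9 FPKM in mutant cells at d4, against 55.3, 54.8 and 52.1 FPKM in WT cells (-1.12 ± 0.05, limma adjusted p = 1.41e-05). All of these separated the genotypes by more than the spread within either group. Sars (serine) had 36.2, 37.2 and 35.5 FPKM in mutant cells at d4, against 75.9, 76.3 and 71.9 FPKM in WT cells (-1.02 ± 0.05, limma adjusted p = 1.33e-05), at the edge of the fold threshold. Of these 4, Aars, Yars and Sars were separated at d0 with the mutant libraries higher, whereas Lars overlapped. Aars shares 1326 exonic bases with Exosc6 on the same strand, so reads of the 2 genes may not be separable.

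Tars and Rars were called in the interaction but between genotypes at neither day. Tars (threonine) had 20.2, 21.3 and 20.3 FPKM in mutant cells at d4 and 37.3, 35.7 and 32.5 FPKM in WT cells, and 79.8, 68.5 and 74.5 FPKM in mutant cells at d0 and 50.2, 52.6 and 58.3 FPKM in WT cells (interaction -1.26 ± 0.11, edgeR adjusted p = 3.18e-08). Rars (arginine) had 25.6, 25.4 and 29.7 FPKM in mutant cells at d4 and 40.9, 39.8 and 35.8 FPKM in WT cells, and 74.8, 67.8 and 74.4 FPKM in mutant cells at d0 and 46.3, 45.6 and 53.3 FPKM in WT cells (interaction -1.13 ± 0.12, edgeR adjusted p = 2.82e-07). In both genes the genotypes changed places between the days without overlap. Eprs, Wars, Vars, Kars, Hars and Xpot were lower at d4 by limma's adjusted p alone, with log2 fold changes from -0.94 for Eprs to -0.22 for Wars. Wars (tryptophan) and Vars (valine) were among the few genes also called lower at d4 than at d0 in WT cells.

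Dars (aspartate) was the exception among the synthetases. It had 44.2, 43.5 and 48.5 FPKM in mutant cells at d4, against 36.9, 36.4 and 37.8 FPKM in WT cells, so that all mutant libraries were higher (0.29 ± 0.06, limma adjusted p = 0.00621, below the fold threshold). At d0 it had 31.7, 25.4 and 27.8 FPKM in mutant cells and 29.9, 36.1 and 34.98 FPKM in WT cells, and the groups overlapped. Its window held no TGATGNAA core.

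**Figure D3:**
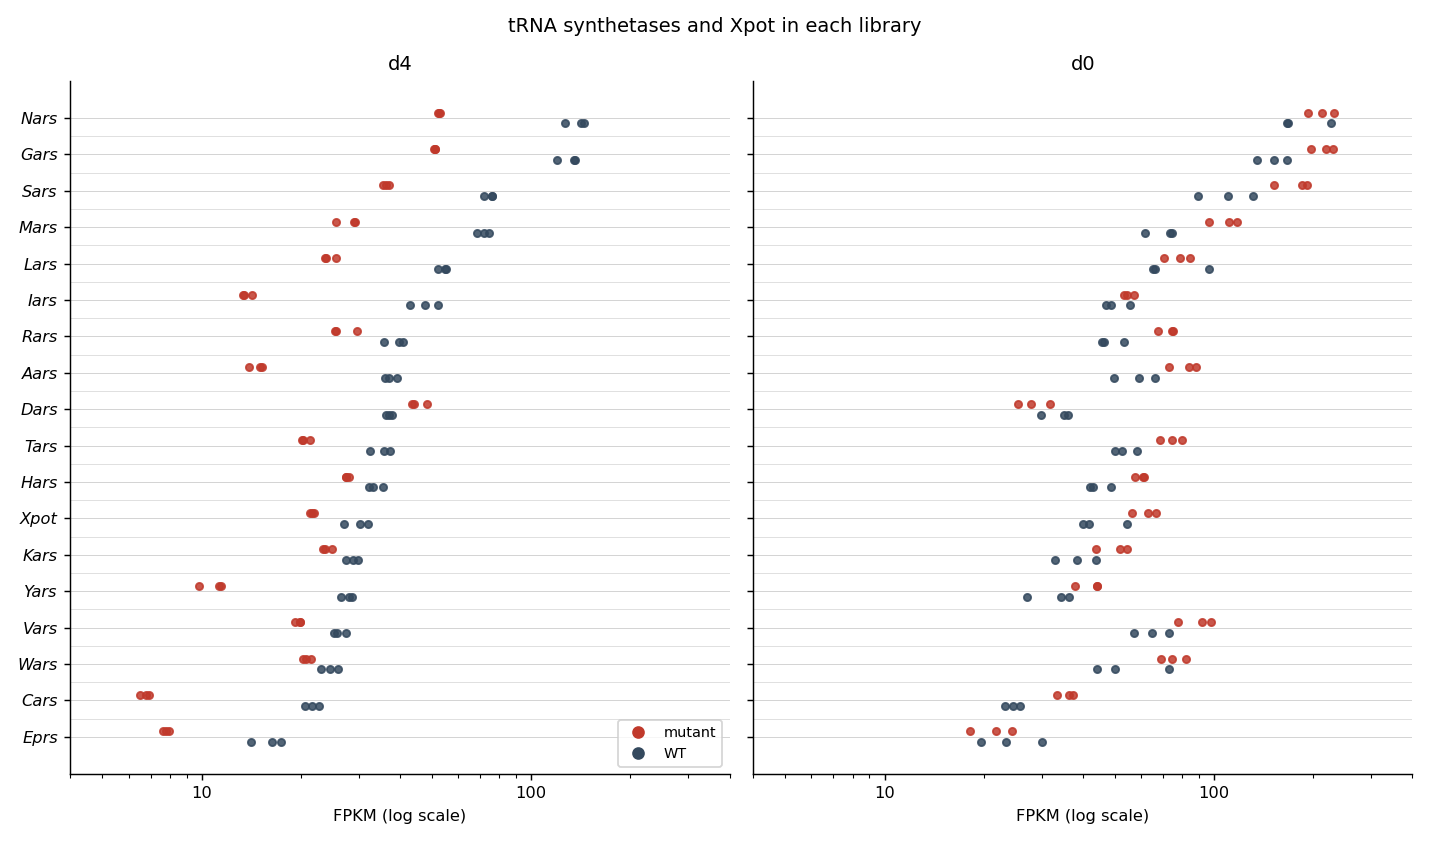
FPKM of the 17 synthetases and Xpot in each library on log axes, d4 on the left and d0 on the right, ordered by the WT d4 mean. At d4 the mutant points lie left of the WT points for 17 of the 18 genes, all but Dars, and at d0 they lie right of them without overlap for 12.

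The day comparisons within each genotype show where the d4 difference lies. In mutant cells 31 of the 40 genes fell and 0 rose with differentiation (edgeR, d4 over d0, with 0 rising by DESeq2 and 3 at an unadjusted p under 0.05), where 17.1% of 13755 genes fell and 17.3% rose, with a median of -1.79 against -0.01 over all genes. In WT cells 5 fell and 1 rose, where 13.0% of 14336 genes fell and 12.6% rose, with a median of -0.23 against -0.03. By adjusted p alone 35 fell and 3 rose in mutant cells (edgeR), beside 38.4% and 36.8% of all genes, and 20 fell and 4 rose in WT cells, beside 32.6% and 29.9%. The mutant d4 and WT d4 libraries enter these comparisons as well as the genotype comparisons, so the values stand side by side and are not independent evidence. Among the genes that fell in mutant cells, Atf4 changed by -1.76 ± 0.09 in mutant cells and -0.08 ± 0.09 in WT cells, Asns by -4.43 ± 0.09 in mutant cells and -0.20 ± 0.12 in WT cells, and Gdf15 by -3.39 ± 0.12 in mutant cells and -0.10 ± 0.12 in WT cells. The WT values of Atf4 and Gdf15 missed the threshold (edgeR adjusted p = 0.467 and 0.467) and turned to 0.007 and 0.013 without WT d0 replicate 3.

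In WT cells 5 of the 40 genes were called lower at d4 than at d0, about the share of all genes (13.0%). Ddit3 changed by -1.23 ± 0.10 in mutant cells and -1.09 ± 0.16 in WT cells, both called (edgeR adjusted p = 1.06e-08 and 2.55e-05). Ddit4 changed by -0.74 ± 0.13 in mutant cells and -1.59 ± 0.10 in WT cells, where only the WT value was called. The 5 WT genes that fell were Ddit3, Ddit4, Vldlr, Wars and Vars, and without WT d0 replicate 3 only Ddit4 and Vars remained, Ddit3 then at -0.791, Vldlr at -0.823 and Wars at -0.886. Nupr1 changed by 0.02 ± 0.09 in mutant cells and 0.78 ± 0.14 in WT cells, where it was short of the fold threshold (edgeR adjusted p = 1.15e-04).

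**Figure D4:**
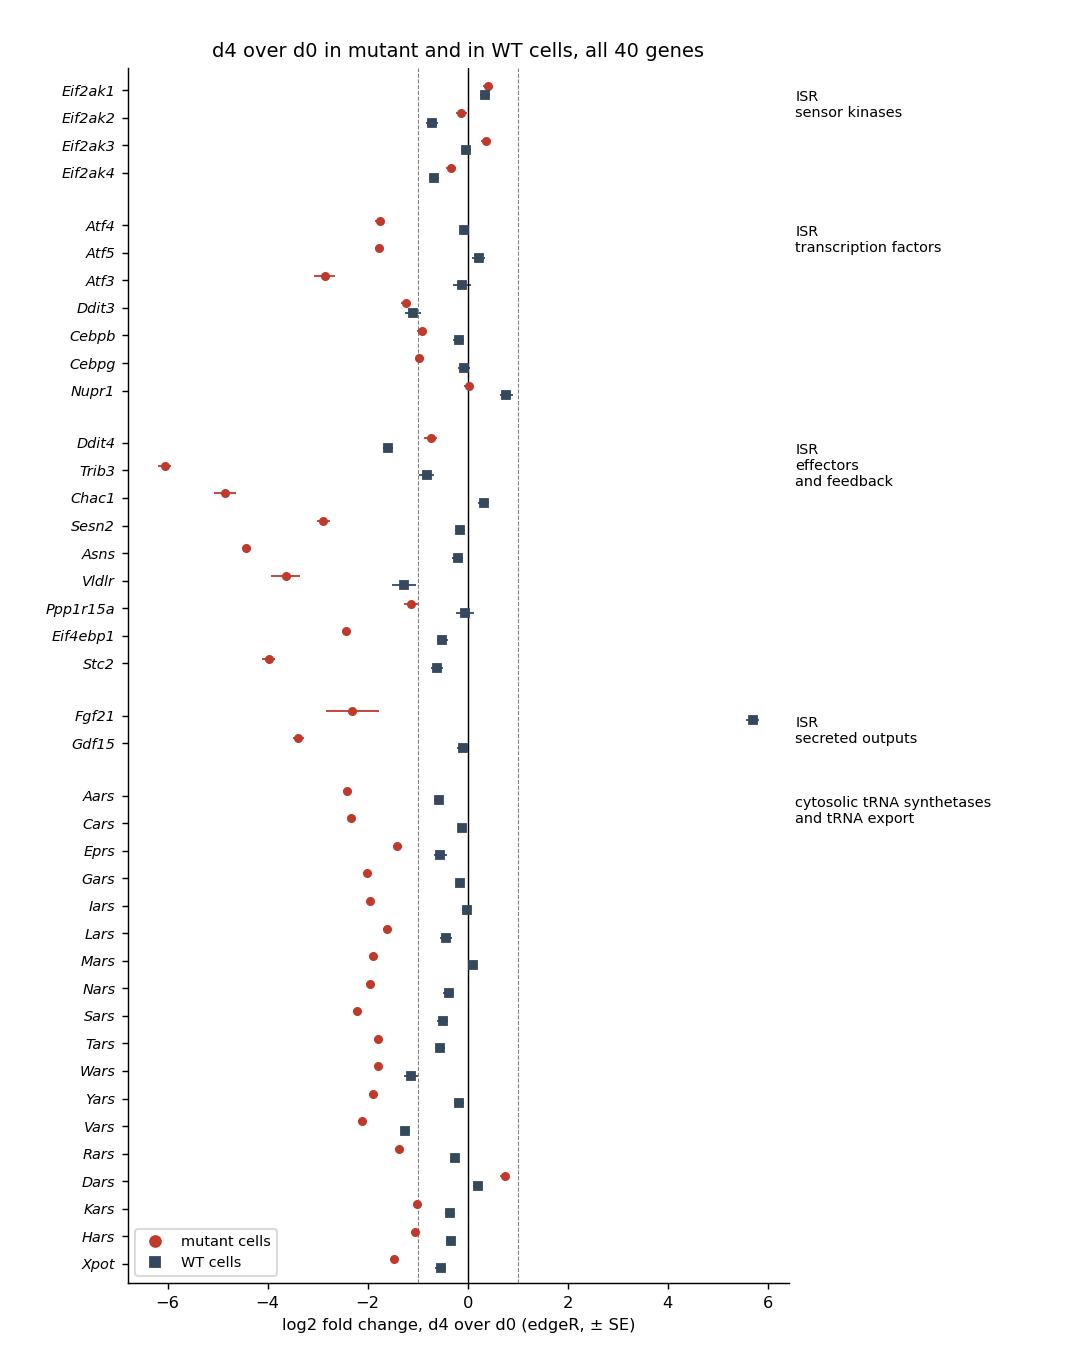
Log2 fold changes of all 40 genes, d4 over d0 (edgeR), with standard errors, in mutant cells (circles) and WT cells (squares), grouped by role. Dashed lines mark -1 and 1. The mutant points of 31 genes are called below -1. Of the WT points 33 lie below 0, most of them above -1, with 5 called below -1 and Fgf21 at 5.70.

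Genes that ATF4 is known to control outside the 40 moved in the same direction at d4. Their lists were chosen with earlier results of these data known, so they are not independent evidence. Of 8 tested enzymes of serine synthesis and one-carbon metabolism, 7 were called lower and 0 higher at d4, where 5.98% and 1.73% of all genes were. Their log2 fold changes had a median of -1.82 against 0.004 over all genes. The 3 with the largest limma values were Mthfd2, a mitochondrial folate enzyme, at 4.25 ± 0.427 FPKM in mutant cells and 64.4 ± 5.12 FPKM in WT cells (SD, n = 3 each, as for the next values), Phgdh, the first enzyme of serine synthesis, at 13.5 ± 2.07 FPKM in mutant cells and 86.4 ± 8.77 FPKM in WT cells, and Aldh1l2 at 1.26 ± 0.198 FPKM in mutant cells and 8.07 ± 1.01 FPKM in WT cells. Cth, which makes cysteine from cystathionine, was close behind on that scale, at 0.364 ± 0.0570 FPKM in mutant cells and 4.20 ± 0.587 FPKM in WT cells, and its means differed by a larger ratio than those of Phgdh or Aldh1l2. At d0 0 of the 8 were called by edgeR or DESeq2. At an unadjusted p under 0.05 6 were higher, and 6 by edgeR's adjusted p alone, beside 20.4% of all genes. Phgdh had 349 ± 39.3 FPKM in mutant cells and 197 ± 33.2 FPKM in WT cells at d0. Of 7 tested amino acid transporters 4 were called lower at d4, where 5.98% of all genes were, and their median log2 fold change was -1.06 against 0.004. The called ones were Slc7a5 of the leucine exchanger at 6.44 ± 0.696 FPKM in mutant cells and 85.3 ± 9.06 FPKM in WT cells, Slc7a1 at 3.03 ± 0.117 FPKM in mutant cells and 14.4 ± 0.773 FPKM in WT cells, Slc1a4 at 4.14 ± 0.527 FPKM in mutant cells and 16.7 ± 1.37 FPKM in WT cells, and Slc3a2, the partner chain of Slc7a5, at 39.1 ± 1.40 FPKM in mutant cells and 82.8 ± 4.83 FPKM in WT cells.

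Few genes of neighboring stress lists were called at d4, where 5.98% of all genes were called lower and 1.73% higher. Many passed limma's adjusted p alone, as 28.7% of all genes did downward and 26.3% upward. Of 17 tested chaperones and targets of XBP1 or ATF6, the other arms of the endoplasmic reticulum stress response, 0 were called in either direction by limma, edgeR or DESeq2, 6 were higher and 6 lower at an unadjusted p under 0.05, 6 higher and 4 lower by limma's adjusted p alone, and the median was 0.08. Calr, the highest of them, had 183 ± 5.58 FPKM in mutant cells and 201 ± 4.06 FPKM in WT cells at d4. Herpud1 and Dnajb11 had the lowest log2 fold changes of the list, Herpud1 with 56.1 ± 2.68 FPKM in mutant cells and 99.1 ± 2.06 FPKM in WT cells and Dnajb11 with 24.1 ± 0.192 FPKM in mutant cells and 43.0 ± 0.921 FPKM in WT cells, both short of the fold threshold. Of 8 mitochondrial chaperones and proteases 0 were called by the same tools and 5 were lower at an unadjusted p under 0.05 and by limma's adjusted p alone, with Hspa9 at 124 ± 2.89 FPKM in mutant cells and 186 ± 10.6 FPKM in WT cells. Of 17 mitochondrial tRNA synthetases 1 was called lower, Nars2, at 1.02 ± 0.124 FPKM in mutant cells and 3.97 ± 0.149 FPKM in WT cells, 8 were lower and 1 higher by limma's adjusted p alone, and the median was -0.11. Lars2, the highest of these, had 84.7 ± 6.55 FPKM in mutant cells and 111 ± 9.43 FPKM in WT cells.

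The translation factors on which the kinases act and the remaining synthetase genes all had values below 0 at d4. In each of these 2 lists 1 gene was called lower, where 5.98% of all genes were. By limma's adjusted p alone 9 of 12 and 4 of 7 were lower, beside 28.7% of all genes. Of 12 subunits of eIF2, eIF2B and the eIF2 phosphatase, 9 were lower by limma's adjusted p alone, with a median of -0.26, and 1 was called lower, Eif2s2, at 18.3 ± 0.310 FPKM in mutant cells and 37.8 ± 1.59 FPKM in WT cells, while Ppp1ca, the highest, had 221 ± 6.51 FPKM in mutant cells and 269 ± 4.55 FPKM in WT cells. Of 7 further cytosolic synthetase and scaffold genes 4 were lower by limma's adjusted p alone, with a median of -0.38, and 1 was called lower, Aimp2, at 9.22 ± 2.02 FPKM in mutant cells and 20.2 ± 1.04 FPKM in WT cells, while Farsb, the highest, had 17.3 ± 1.99 FPKM in mutant cells and 27.1 ± 0.622 FPKM in WT cells. Aimp2 shares 487 exonic bases with Eif2ak1 on the opposite strand. Of 7 tested genes that activate the kinases or relay mitochondrial stress to them 0 were called by those tools, 1 was higher and 1 lower at an unadjusted p under 0.05, with Impact at 26.8 ± 0.800 FPKM in mutant cells and 20.3 ± 1.22 FPKM in WT cells. Of 3 tested relatives of Eif4ebp1 and cap-binding genes 0 were called by those tools, 1 was higher and 2 lower at an unadjusted p under 0.05, with Eif4g1 at 73.0 ± 2.26 FPKM in mutant cells and 94.6 ± 1.63 FPKM in WT cells. Of the 2 receptor genes of the secreted factors that could be tested at d4, Fgfr3 was called lower, at 0.786 ± 0.112 FPKM in mutant cells and 2.79 ± 0.223 FPKM in WT cells, and Fgfr1 was not, at 34.1 ± 0.595 FPKM in mutant cells and 31.9 ± 0.761 FPKM in WT cells.

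**Figure D5:**
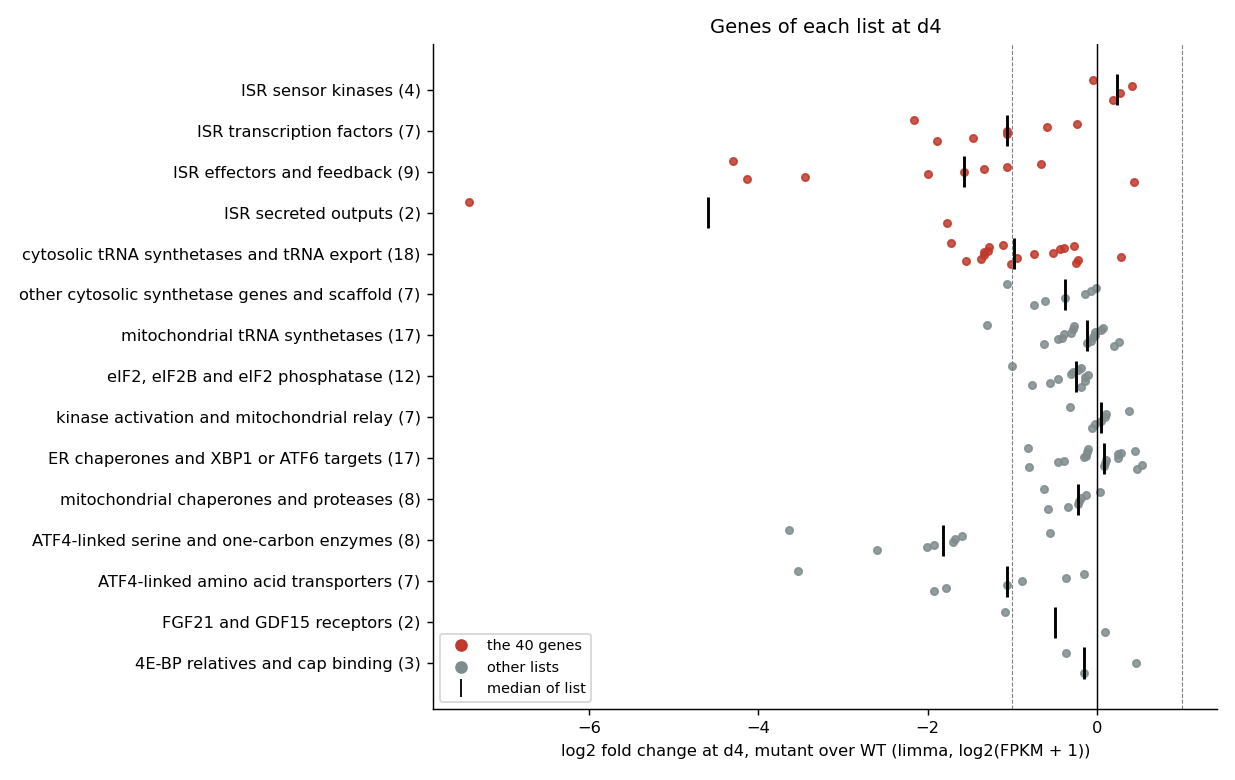
Log2 fold changes at d4, mutant over WT (limma on log2(FPKM + 1)), of the genes of each list, 1 point a gene, with the number of genes tested in parentheses and a bar at the list's median. The lists of the 40 genes are red. Besides these, the serine and one-carbon enzymes and the amino acid transporters lie below 0. So do the eIF2 and eIF2B list (median -0.26) and the other cytosolic synthetase genes (-0.38). The endoplasmic reticulum chaperones and the kinase activators center near 0, with medians of 0.08 and 0.04. Of the mitochondrial chaperones 7 of 8 lie below 0 (median -0.22), and of the mitochondrial synthetases 13 of 17 (-0.11).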

How the data were processed

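The 12 libraries were grouped by genotype and day from their labels, which do not say whether replicates were separate cultures, so the p-values reflect the scatter among libraries and that scatter may be technical. The study's methods state fewer biological replicates per condition than the 3 libraries of each group, and a legend gives 3. A treatment tag that follows genotype was not used. The authors deposited read counts per gene for 9 libraries and FPKM for all 12, from poly(A) RNA. Per their processing notes the genome was mm10 and DESeq2 1.20.0 was run, and no aligner, counter or strand setting is stated in the sources. The WT d4 table carries 3 count columns named for mutant libraries, equal to those counts at all 24787 genes, which were not used. WT d4 reads were worked back from FPKM and gene length, 100% whole within 0.01 reads. Total reads of 16098407 to 21412560 per library set the precision. FPKM were scaled per day by the authors, and this shifted d4 over d0 by -0.009 on the log2 scale against TMM.

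The d4 comparison used limma 3.58.1 on log2(FPKM + 1), which understates changes of low genes, keeping genes that reached 0.5 FPKM in at least 3 libraries. The others used edgeR 4.0.16 (quasi-likelihood, TMM, filterByExpr, R 4.3.3). The limma fit at d4 and the edgeR fit at d0 were tested on simulated data. A gene was called when its p, adjusted by Benjamini-Hochberg over all genes tested, was under 0.05 and its absolute log2 fold change above 1. Alternatives were DESeq2 1.42.0, RLE, quantile normalization, no filter, pseudocounts of 0.1 and 5, no fold threshold, limma or edgeR in place of the other, 1 fit of all libraries, the replicate block and leaving out each library. The members and lists were chosen with earlier results of these data known. Named with values in every d4 library were Atf4, Ddit3, Trib3, Asns, Fgf21, Gdf15 and every member called between genotypes or in the interaction. Values of the d0 libraries are printed for only part of these members. Of other lists up to 3 called genes with the largest change and at least 1 FPKM were named, plus the highest. Promoters are RefSeq's (GRCm38.p6), with windows for 32 of 40 genes, and overlaps are from GENCODE M21. Sequences of chromosome 18 are not shown. The matching stretches of 1 gene are not reported here.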

Additional observations from a re-analysis of the deposited data

Results flagged for a closer look

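The genotype effect at d4 differed from that at d0 for 24 of the 40 genes by the interaction test itself (edgeR, adjusted p under 0.05 and absolute log2 value above 1), where 16.6% of all 15114 genes tested were called in either direction. All 24 values, each the d4 over d0 log2 change of mutant cells minus that of WT cells, were negative. The secreted factors Fgf21 and Gdf15 had -8.00 and -3.30. Among effectors the values were -5.25 for Trib3, -5.18 for Chac1, -4.24 for Asns, -3.38 for Stc2, -2.74 for Sesn2, -2.38 for Vldlr, -1.93 for Eif4ebp1 and -1.09 for Ppp1r15a. Among transcription factors they were -2.76 for Atf3, -2.01 for Atf5 and -1.69 for Atf4. The 11 synthetases had -2.24 for Cars, -2.01 for Mars, -1.94 for Iars, -1.88 for Gars, -1.84 for Aars, -1.73 for Yars, -1.73 for Sars, -1.59 for Nars, -1.26 for Tars, -1.20 for Lars and -1.13 for Rars. For Gdf15 the genotypes were separated without overlap at both days in opposite directions. With 3 libraries a group, single libraries were not tested for standing apart.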

How the results depend on the processing

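The counts of the 40 genes called kept within 1.5 times of their values under DESeq2, RLE size factors, no filter on low counts or values, all 12 libraries in 1 fit, limma in place of edgeR and the reverse, and the stricter core (9 genes). The number lower at d4 was 18 with a pseudocount of 5, 19 with quantile normalization and 24 with edgeR on reads. Without a fold change threshold the counts were 16 higher and 4 lower at d0, 4 higher at d4, 3 higher in mutant cells by day, 4 higher and 20 lower in WT cells by day, and 4 higher in the interaction. Leaving out 1 library in turn gave 1 to 2 genes lower at d0 (1 without mutant replicate 1 or 2, where Fgf21 lost its call), 22 to 23 lower at d4, 29 to 32 lower in mutant cells by day, 2 to 5 lower in WT cells by day (2 without WT d0 replicate 3) and 23 to 27 lower in the interaction. Of 1296 values of single genes under alternatives, 1267 kept their side, 25 lost the threshold and 4 changed sign. The sign changed for Ddit3 at d0 (from -0.273 to 0.179 over libraries left out), Atf4 (-0.128 to 0.007) and Gdf15 (-0.19 to 0.013) by day in WT cells, each highest without WT d0 replicate 3, and for Vldlr in the interaction with limma (0.007). None of these 4 was past the threshold after the change, and the cause was not tested. At d4 Vldlr could not be tested without any 1 WT library, because it then missed the filter on low values. With 3 mutant reads in some libraries, depth limits the size of the Fgf21 fold.

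Replicate numbers name the libraries and did not pair them: same-numbered libraries deviated with correlations from -0.653 to 0.106. In 2 of 12 comparisons of a library with the libraries of another group, its own number correlated best. With the replicate number as a block the counts were 1 higher and 2 lower at d0, 0 higher and 23 lower at d4, 0 higher and 30 lower in mutant cells by day, 1 higher and 5 lower in WT cells by day, and 0 higher and 24 lower in the interaction.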
